A study of Homo sapiens and Mus musculus with 8 samples.

Results

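The genes described here are 35 aminoacyl-tRNA synthetases, 19 that serve translation in the cytosol and 16 that serve translation in the mitochondrion, out of 35141 genes in the K562 expression table. They were listed by gene symbol and not by a cutoff on a measured value, but with earlier results of these data known. Each compartment was followed in every library. K562 is a human chronic myeloid leukemia line that carries BCR-ABL, the fusion kinase of this leukemia. The tested cells were K562 cultured for 48 h with 2 μM JOA, the diterpenoid Jiyuan oridonin A, and the control cells were K562 cultured for 48 h without JOA. The source labels call these cells only "control", so the vehicle is not known here. Each group had 2 RNA libraries, called replicate 1 and replicate 2. The series also has JOA and control libraries of BaF3-T315I, a mouse pro-B line made dependent on BCR-ABL with the T315I kinase mutation, which were not used here. Both groups come from 1 established line, and RNA was taken from whole cultures.

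Aminoacyl-tRNA synthetases join each amino acid to its transfer RNA and so supply the ribosome with charged tRNA. Cytosolic enzymes serve ribosomes that translate nuclear mRNAs, whereas mitochondrial enzymes, also encoded in the nucleus, serve the organelle's own ribosomes and the few proteins of the respiratory chain made there. GARS1 and KARS1 each encode both a cytosolic and a mitochondrial enzyme and were kept with the cytosolic set by the rule. Part of the cytosolic enzymes sit in a multi-synthetase complex held together by the scaffold proteins AIMP1, AIMP2 and EEF1E1. Many cytosolic synthetase genes are known targets of ATF4, the transcription factor of the amino acid response, which binds DNA together with C/EBP proteins at elements of the form TGATGNAA.

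Promoter windows of RefSeq (build GRCh38.p14), running from 250 bases before to 50 bases after each gene's start, were matched to 30 of the members by symbol. LARS1, VARS1, YARS1, AARS2 and VARS2 had no window in the table used. The letters TGATGNAA were searched on both strands, and so was the E-box CACGTG, the element bound by MYC and its relatives. The ATF4-type letters were found in 7 of the 16 cytosolic members with a window (43.8%), in 1 of the 14 mitochondrial members with a window (7.14%), and in 3.62% of all 35116 windows in the table. Counted by gene as for the members, 2.41% of the 9818 genes tested in K562 cells that had a window held them. The stricter form TGATGCAA was found in 6 cytosolic members (37.5%), in 0 mitochondrial members, and in 0.866% of all windows. The stretches of AARS1, CARS1, GARS1, IARS1, MARS1 and TARS1 are shown because the cytosolic members with these letters, NARS1 being the other, also differed in 1 direction between the libraries of each group. Each is printed 5′ to 3′ along the gene's strand with the match in capitals and TTGCATCA is TGATGCAA read on the other strand.
AARS1, chr16:70289675-70289704, minus strand: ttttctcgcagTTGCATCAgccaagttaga
CARS1, chr11:3057407-3057436, minus strand: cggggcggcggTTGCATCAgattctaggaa
GARS1, chr7:30594834-30594863, plus strand: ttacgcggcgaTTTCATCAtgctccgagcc
IARS1, chr9:92293692-92293721, minus strand: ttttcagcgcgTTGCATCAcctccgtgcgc
MARS1, chr12:57488053-57488082, plus strand: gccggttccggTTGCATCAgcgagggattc
TARS1, chr5:33440956-33440985, plus strand: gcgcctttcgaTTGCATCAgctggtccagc

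The single mitochondrial stretch with these letters, in YARS2, is shown for comparison.
YARS2, chr12:32756076-32756105, minus strand: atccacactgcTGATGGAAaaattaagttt

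The first capital lies at -187 from the start site in AARS1, at -33 in GARS1, at -13 in IARS1, at -4 in MARS1 and at -2 in CARS1, and just inside the transcribed part in TARS1 and NARS1. The E-box was found in 1 of the 16 cytosolic members with a window (IARS1) and in 3 of the 14 mitochondrial members with a window (MARS2, CARS2 and EARS2), against 7.26% of all windows and 12.8% of the 9818 genes tested in K562 cells that had a window. These E-box stretches of the mitochondrial members are shown because MARS2 and EARS2 are the mitochondrial members with the most negative fold changes below. WARS2, at a log2 fold change of -0.35 close to EARS2 at -0.36, had no E-box in its window. CARS2 and IARS1, which hold it, had log2 fold changes of -0.17 and 0.19.
MARS2, chr2:197705347-197705376, plus strand: tgcgcctctcaCACGTGctgtcagaacgcc
EARS2, chr16:23557347-23557376, minus strand: agggagaagccCACGTGtgctattccatcc
CARS2, chr13:110706500-110706529, minus strand: gctgggatgcaCACGTGcttcgctaacagg

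These matches describe letters in the reference sequence. They are not evidence of binding in these cells.

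The depth of the 4 libraries, recovered from the FPKM values and gene lengths, was 23112805 and 22625597 reads in genes for the JOA libraries, against 23292638 and 23005481 for the control libraries. FPKM is a count of fragments scaled to gene length and library depth. The length that gave back whole reads for most genes was the union of all annotated exon bases. That union can exceed the length of a single transcript, which lowers the FPKM of such a gene. K562 identity was checked with 7 erythroid markers, which were all detected and summed to 425 and 361 FPKM in the JOA libraries, against 623 and 553 FPKM in the control libraries. Of 7 markers of other blood cells, CD3E, CD79A, CD14 and ELANE were under 0.5 FPKM and MS4A1 was at 0 in every library, MPO had 0.0 and 1.14 FPKM with JOA, against 0.0244 and 0.37 FPKM in controls, and the 7 summed to 30.5 and 20.9 FPKM with JOA, against 22.5 and 17.3 FPKM in controls, nearly all of it LYZ. The part of these markers in the synthetase levels was not tested. In bulk RNA, fewer cells of a kind and less RNA per cell cannot be told apart. The labels do not say whether the 2 libraries of a group came from separate cultures, and the study's general statement that experiments were repeated independently does not name these libraries, so p-values measure only the spread between these libraries, which may be technical.

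The synthetase mRNAs spanned a wide range of levels in K562 cells, and those of the cytosolic enzymes had the higher median. The mean over the 4 libraries ran from 10.1 to 164 FPKM for cytosolic members, with a median of 69.1 FPKM, and from 0.594 to 63.1 FPKM for mitochondrial members, with a median of 10.5 FPKM. AARS1, the alanyl-tRNA synthetase, had the highest level of all, and HARS1, the cytosolic histidyl-tRNA synthetase, the lowest among cytosolic members. Among mitochondrial members, the isoleucyl enzyme IARS2 had 65.7 and 57.6 FPKM in JOA cells, against 66.2 and 62.8 FPKM in control cells. The seryl enzyme SARS2 was the lowest, at 0.589 and 0.479 FPKM in JOA cells, against 0.757 and 0.552 FPKM in control cells, which is 44 and 35 reads, against 57 and 41 reads. SARS2 shares 46.2% of its exon bases with an overlapping gene on its own strand, so its reads may have been split or dropped in counting. In the 17 pairs of a cytosolic and a mitochondrial member for the same amino acid, the cytosolic level was higher in all 17, by ratios of mean FPKM between 1.03 (HARS1 over HARS2) and 157 (SARS1 over SARS2). The union exon length was 7853 bases for HARS1 and 3736 bases for HARS2, so the order of levels between genes depends in part on this length.

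**Figure D1:**
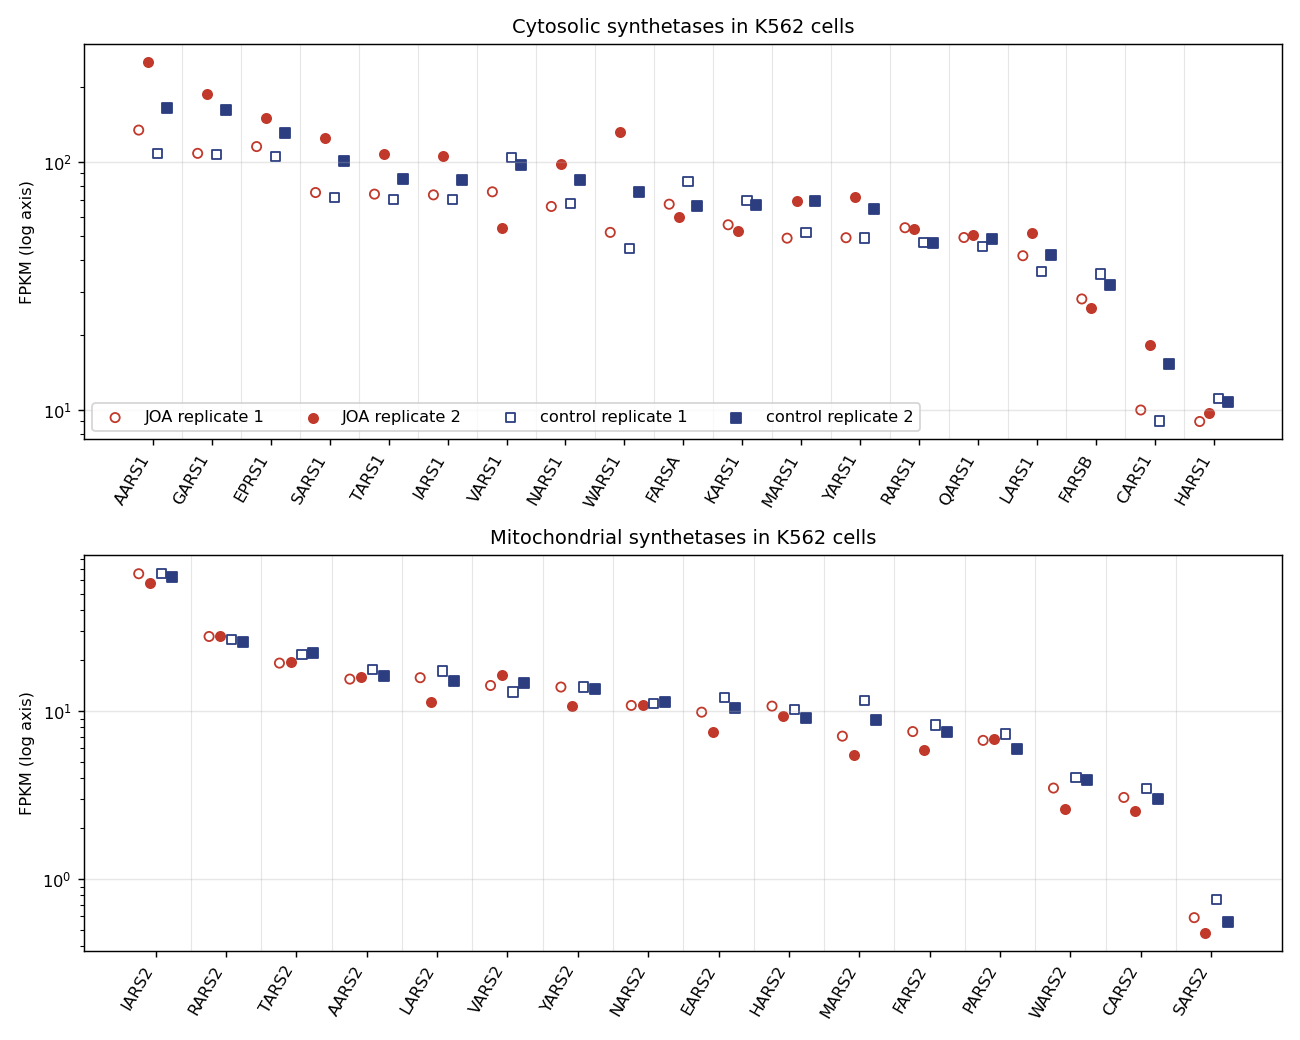
FPKM of each synthetase on a log axis, cytosolic members in the upper panel and mitochondrial members in the lower, each ordered by mean level. Circles are JOA libraries and squares control libraries, open for replicate 1 and filled for replicate 2. For AARS1, GARS1, SARS1 and most other cytosolic members the filled symbols lie above the open ones in both groups, and for VARS1, KARS1, MARS2 and EARS2 both circles lie below both squares.

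No synthetase passed the test between JOA and control cells, and neither did any other of the 15635 genes tested. limma on log2(FPKM + 0.5) over the 15635 genes whose average FPKM reached 0.5, all 35 members among them, called 0.0% of genes higher and 0.0% lower at a Benjamini-Hochberg adjusted p under 0.05 with a log2 fold change of at least 0.58 in size. The smallest adjusted p from limma was 0.171 over all genes and 0.255 over the members. At an unadjusted limma p under 0.05, 0 members were higher and 4 were lower with JOA, namely VARS1, KARS1, FARSB and MARS2, against 11.4% of all genes higher (1787 genes) and 5.82% lower (910 genes). With the fold threshold added, 0 members were higher, against 5.38% of all genes, and 2 were lower (VARS1 and MARS2), against 2.38%. Fold changes below are JOA over control on the log2(FPKM + 0.5) scale, which understates the change of low genes, and the median over all genes tested was 0.10.

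The cytosolic set as a whole lay close to the median of all genes, and its members spread to both sides. The median log2 fold change of the 19 cytosolic members was 0.11, from -0.65 (VARS1) to 0.51 (WARS1), with 13 positive and 6 negative. For RARS1 and QARS1 the 2 JOA libraries were each higher than either control, as for 36.8% of all genes, and for VARS1, KARS1, FARSB and HARS1 they were each lower than either control, as for 18.3% of all genes. The median differed little by enzyme class, at 0.19 for the 9 members of class I and 0.08 for the 9 of class II, and by place, at 0.16 for the 7 enzymes of the multi-synthetase complex and 0.10 for the 12 others. EPRS1, which joins a class I glutamyl and a class II prolyl enzyme in 1 protein, was left out of the split by class.

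**Figure D2:**
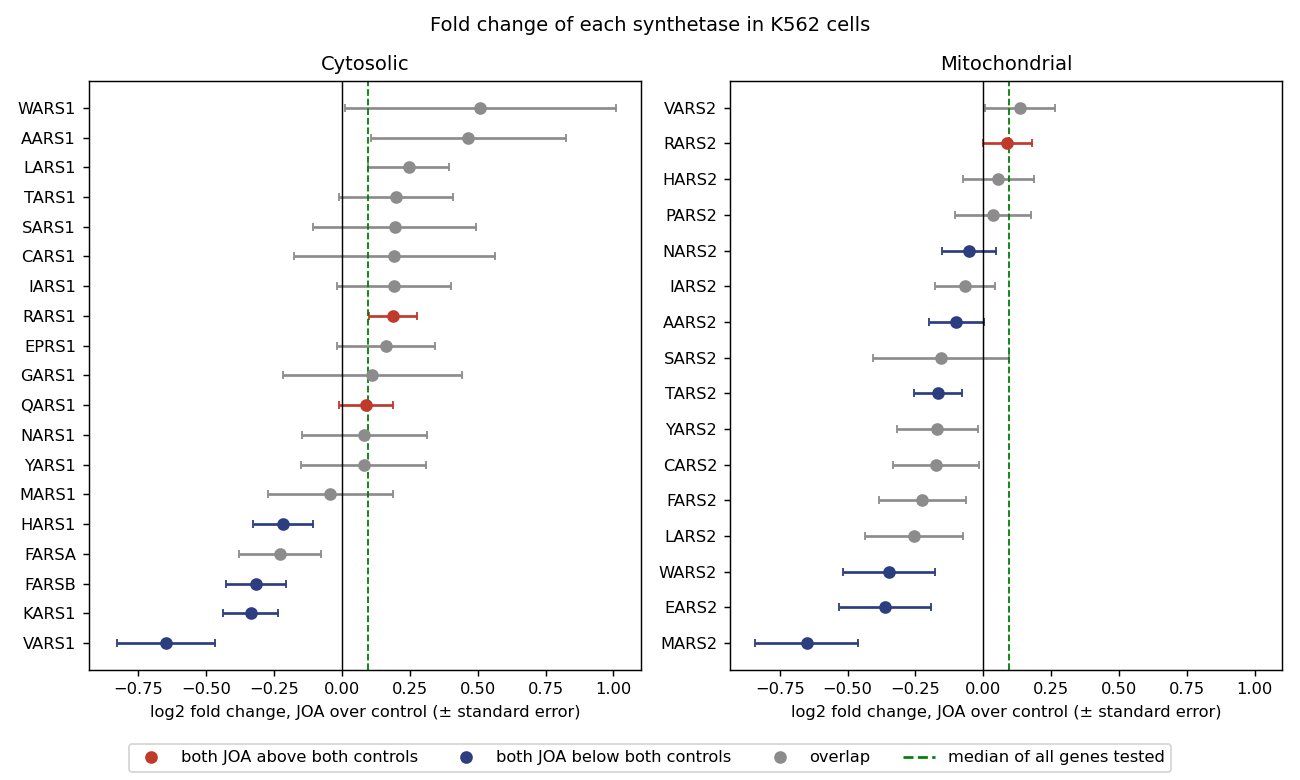
Log2 fold change of each synthetase, JOA over control, with its standard error from limma (horizontal bars), cytosolic members at left and mitochondrial members at right. Blue points are members with both JOA libraries below both controls, red points those with both above, and grey points overlap; the dashed line is the median of all genes tested, 0.10. The 5 most negative cytosolic points include VARS1 at -0.65, and 12 of the 16 mitochondrial points lie below 0.

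VARS1, KARS1, FARSB and HARS1 had a lower level in both JOA libraries than in either control, and the first 3 were the cytosolic members under an unadjusted p of 0.05. VARS1, the valyl-tRNA synthetase (chr6:31777518-31795953, minus strand), had 75.6 and 53.9 FPKM in JOA cells, against 104 and 96.5 FPKM in control cells. The groups did not overlap, and the means were 64.8 ± 15.3 FPKM in JOA cells and 100.4 ± 5.55 FPKM in control cells (SD, n = 2 each). The log2 fold change of VARS1 was -0.65 (SE 0.18, limma adjusted p = 0.255), and -0.41 without JOA replicate 2. KARS1, the lysyl-tRNA synthetase of both compartments (chr16:75627474-75648643, minus strand), had 55.7 and 52.4 FPKM in JOA cells, against 69.9 and 66.9 FPKM in control cells. Its libraries agreed closely within each group, with means of 54.1 ± 2.37 FPKM with JOA and 68.4 ± 2.19 FPKM in controls (SD, n = 2 each), and its log2 fold change was -0.34 (SE 0.10, limma adjusted p = 0.256).

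FARSB and FARSA encode the beta and alpha subunits of the same cytosolic phenylalanyl-tRNA synthetase, and both had negative fold changes. FARSB had 28 and 25.8 FPKM in JOA cells, against 35.3 and 31.9 FPKM in control cells. The groups did not overlap, with a log2 fold change of -0.32 (SE 0.11, limma adjusted p = 0.273). FARSA had 67.4 and 59.6 FPKM in JOA cells, against 83.0 and 66.5 FPKM in control cells. The lower control lay just below the higher JOA library, and the log2 fold change was -0.23 (SE 0.15, limma adjusted p = 0.434), and -0.07 without control replicate 1. HARS1 had 8.99 and 9.70 FPKM in JOA cells, against 11.1 and 10.8 FPKM in control cells. Its groups did not overlap and its log2 fold change was -0.22 (SE 0.11, limma adjusted p = 0.348).

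HARS1 and HARS2, the cytosolic and mitochondrial histidyl enzymes, are neighbours on chromosome 5 with start sites that face away from each other, and their levels stood in different order to the controls. HARS2 had 10.7 and 9.31 FPKM in JOA cells, against 10.2 and 9.04 FPKM in control cells. The HARS2 groups overlapped, with a log2 fold change of 0.06 (SE 0.13, limma adjusted p = 0.824). The ratio of HARS1 to HARS2 was 0.839 and 1.04 in the JOA libraries, against 1.09 and 1.19 in the control libraries, below both controls in both. The 84 bases between the start sites that RefSeq gives for the pair (59.5% G or C) are printed because both genes begin from them; the whole stretch is in lower case, along the plus strand, on which HARS2 lies.
HARS1 to HARS2, chr5:140691371-140691454, plus strand: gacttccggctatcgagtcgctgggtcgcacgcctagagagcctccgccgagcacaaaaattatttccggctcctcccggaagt

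HARS1 shares 8.4% and HARS2 15.8% of their exon bases with other annotated genes, and the strand setting used in counting is not given in the sources used here. Reads of the pair may therefore not be fully told apart.

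WARS1 and AARS1 had the most positive fold changes, but both fold changes were smaller than the difference between the libraries of either group. WARS1, the tryptophanyl-tRNA synthetase, which is also induced by interferon gamma (chr14:100333788-100376805, minus strand), had 51.9 and 132 FPKM in JOA cells, against 44.7 and 75.5 FPKM in control cells. JOA replicate 1 lay below control replicate 2, and JOA replicate 2 above all others. The means were 92.1 ± 56.9 FPKM with JOA and 60.1 ± 21.8 FPKM in controls (SD, n = 2 each), and the log2 fold change was 0.51 (SE 0.50, limma adjusted p = 0.592). Without JOA replicate 2 the fold change of WARS1 was -0.16. AARS1 (chr16:70252295-70289543, minus strand) had 134 and 252 FPKM in JOA cells, against 108 and 164 FPKM in control cells. Its groups overlapped in the same way, with a log2 fold change of 0.47 (SE 0.36, limma adjusted p = 0.501), and of 0.01 without JOA replicate 2.

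LARS1, the leucyl-tRNA synthetase, which also senses leucine for the growth kinase mTORC1, had 41.8 and 51.4 FPKM in JOA cells, against 36.1 and 42.2 FPKM in control cells. The lower JOA library lay just under the higher control, and the log2 fold change was 0.25 (SE 0.15, limma adjusted p = 0.413), and 0.10 without JOA replicate 2. RARS1, the arginyl enzyme of the complex, had the tightest libraries of the set, at 54.2 and 53.5 FPKM in JOA cells, against 47.3 and 47.2 FPKM in control cells. The groups were separate, and the log2 fold change was 0.19 (SE 0.09, limma adjusted p = 0.341). QARS1, the glutaminyl enzyme of the complex, had 49.5 and 50.7 FPKM in JOA cells, against 45.5 and 48.8 FPKM in control cells. Here too the groups were separate, with a log2 fold change of 0.09 (SE 0.10, limma adjusted p = 0.624). The remaining 9 cytosolic members (EPRS1, GARS1, CARS1, IARS1, MARS1, NARS1, SARS1, TARS1 and YARS1) overlapped between groups, with log2 fold changes between -0.04 (MARS1) and 0.20 (TARS1).

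For most cytosolic synthetases the libraries of a group differed, and they differed the same way in both groups. Replicate 2 was above replicate 1 in both groups for 13 of the 19 cytosolic members (68.4%), against 33.7% of all genes, and below it in both for 5 (26.3%), against 29.1% of all genes. It was above by at least 0.3 on the log2 scale in both groups for 9 of them (47.4%), against 6.52% of all genes. The median difference of replicate 2 minus replicate 1 over the cytosolic members was 0.49 in JOA cells and 0.27 in control cells, against a median fold change between groups of 0.11. For WARS1 it was 1.34 in JOA cells and 0.75 in control cells, for AARS1 0.90 and 0.61, for CARS1 0.83 and 0.73, and for GARS1 0.79 and 0.58. The 2 differences followed each other across the 19 genes (Pearson's r = 0.94, Spearman's rho = 0.96), which describes genes that share the same 4 libraries and are not independent. A replicate number in the labels is only a name and does not say that same-numbered libraries were handled together.

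The cytosolic members that hold the ATF4-type letters (AARS1, CARS1, GARS1, IARS1, MARS1, NARS1 and TARS1) showed this difference in every case, and the mitochondrial YARS2, which holds them too, did not. Replicate 2 was higher in both groups for 7 of 7 of them, by 0.49 to 0.90 in JOA cells (median 0.56) and by 0.26 to 0.73 in control cells (median 0.42). Of the 9 cytosolic members with a window but no such letters, 4 were higher in replicate 2 in both groups (WARS1, SARS1, EPRS1 and QARS1), with medians of 0.03 in JOA cells and -0.00 in control cells. The overlap was wide, since WARS1 had the largest difference of all and no match in its window. The summed level of the 7 members with the letters was 515 and 835 FPKM in JOA cells, against 484 and 665 FPKM in control cells, and that of the 9 without was 506 and 659 FPKM, against 513 and 578 FPKM. In YARS2 replicate 2 was the lower library, by -0.36 in JOA cells and -0.03 in control cells. The median fold change between groups was 0.19 for the 7 and 0.09 for the 9. The letters searched for were also chosen with earlier results of these data known.

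**Figure D3:**
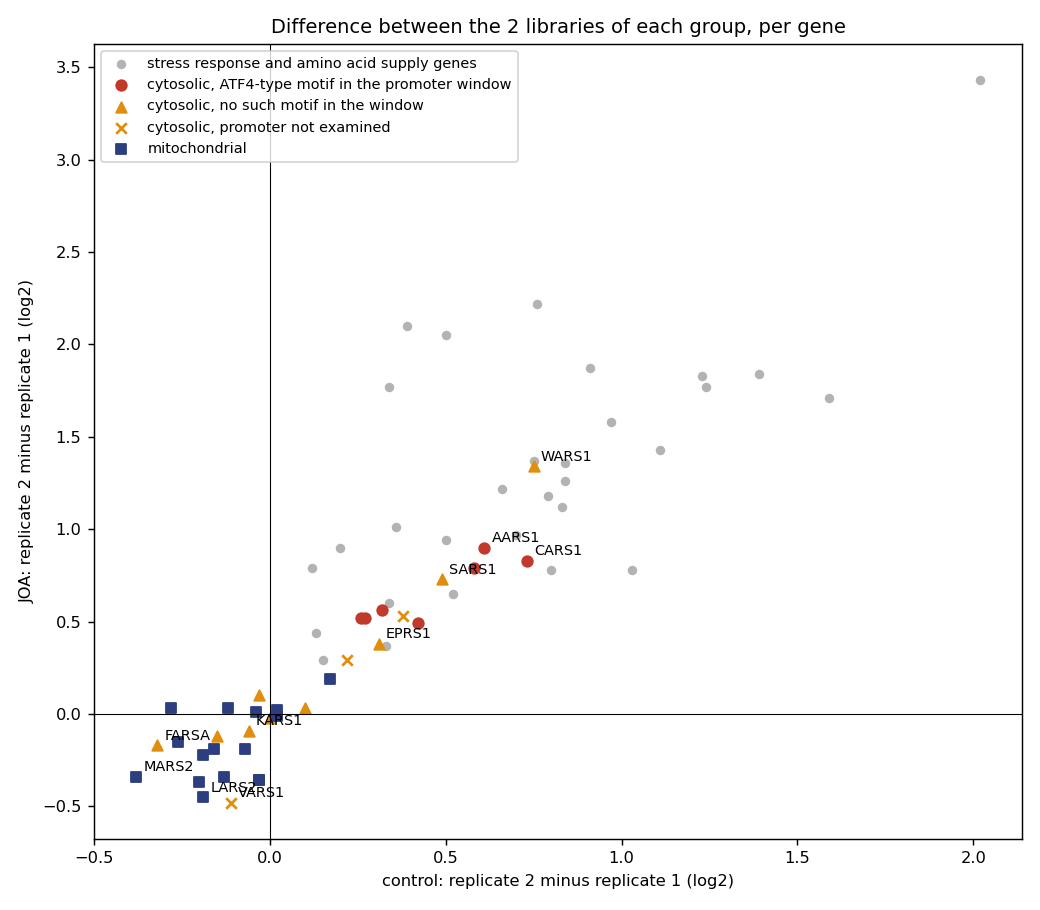
Difference of replicate 2 minus replicate 1 on the log2(FPKM + 0.5) scale for each gene, in JOA cells (vertical axis) and in control cells (horizontal axis). Red circles are cytosolic members with the ATF4-type letters in the promoter window, orange triangles those without, orange crosses those whose window was not examined, blue squares mitochondrial members, and grey points the list of stress response and amino acid supply genes. The red circles lie at 0.26 to 0.73 on the horizontal and 0.49 to 0.90 on the vertical axis, within the range of the grey points, and most blue squares lie below 0 on both.

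Genes of the amino acid and stress response moved with the libraries in the same order. A list of 32 genes of this response, including enzymes that make serine, glycine and asparagine and the transporters that import amino acids, had 30 members tested. The list was written with earlier results of these data known, so its counts are a description and no independent test. Replicate 2 was higher in both groups for 30 of 30, against 33.7% of all genes, and by at least 0.3 in both for 26 (86.7%), against 6.52% of all genes, with median differences of 1.24 in JOA cells and 0.76 in control cells. ATF4 itself had 160.1 and 252 FPKM in JOA cells, against 172 and 246 FPKM in control cells, a log2 fold change of -0.03. PSAT1, a serine synthesis enzyme, had 80.0 and 217 FPKM in JOA cells, against 75.5 and 163 FPKM in control cells. CHAC1, which degrades glutathione, had 3.97 and 47.7 FPKM in JOA cells, against 6.93 and 29.6 FPKM in control cells. In all 3 genes the difference between libraries of 1 group was larger than that between groups.

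Between JOA and control cells, the list had a median log2 fold change of 0.31, with 23 genes positive and 7 negative and 0 at an unadjusted limma p under 0.05 in either direction, against 11.4% of all genes higher and 5.82% lower. The largest was DDIT3, a stress transcription factor that promotes cell death, with 20.7 and 72.0 FPKM in JOA cells, against 12.8 and 16.3 FPKM in control cells, and a log2 fold change of 1.39 (SE 0.59, limma adjusted p = 0.31). The groups were separate, but the JOA libraries stood far apart. DDIT3 lies opposite MARS1 on chromosome 12, and MARS1 shares 13.3% of its exon bases with other genes, DDIT3 among them. ASNS, the asparagine synthetase, had 2.99 and 5.49 FPKM in JOA cells, against 1.32 and 3.22 FPKM in control cells (log2 fold change 0.81). TRIB3, an inhibitor of ATF4, had 26.6 and 112 FPKM in JOA cells, against 32.2 and 45.8 FPKM in control cells (0.50), and XPOT, the exporter of tRNA from the nucleus, had 59.3 and 76.9 FPKM, against 50.8 and 63.8 FPKM (0.24). The lowest was EIF4EBP1, a repressor of cap-dependent translation, with 79.2 and 97.3 FPKM in JOA cells, against 106 and 118 FPKM in control cells (-0.35, no overlap). The part of this response in the synthetase levels was not tested.

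**Figure D4:**
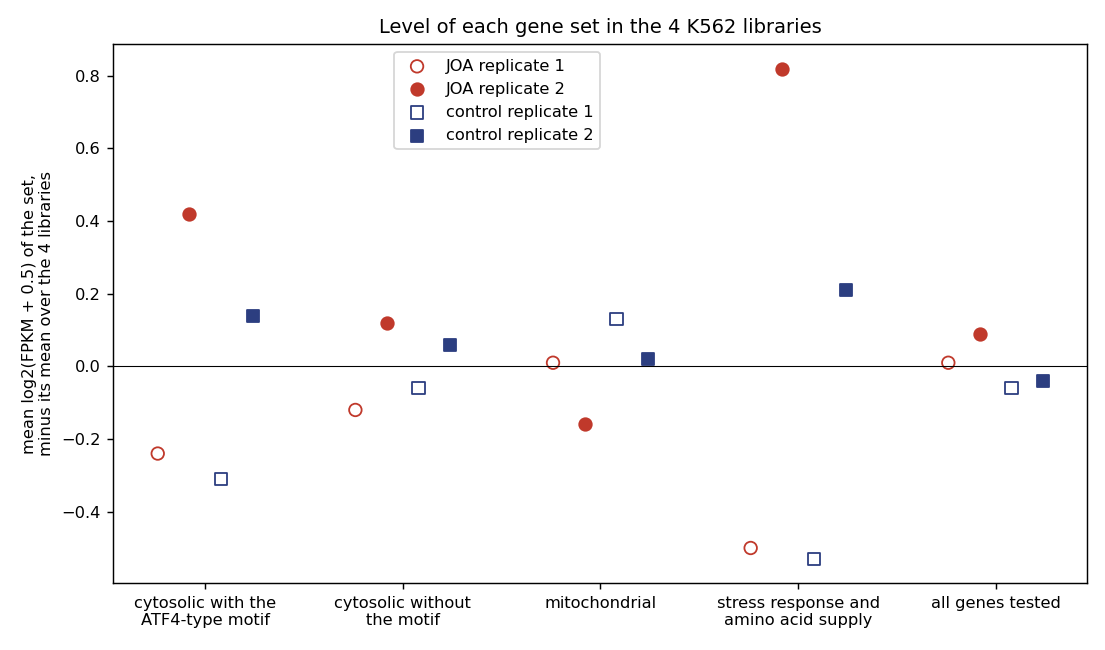
Mean log2(FPKM + 0.5) of each gene set in each K562 library, minus the set's mean over the 4 libraries. Circles are JOA libraries and squares control libraries, open for replicate 1 and filled for replicate 2. Cytosolic members with the ATF4-type letters stood at -0.24 and 0.42 in JOA cells, against -0.31 and 0.14 in control cells, in the same order of libraries as the stress and amino acid list at -0.50 and 0.82, against -0.53 and 0.21; all genes tested stayed between -0.06 and 0.09.

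The mitochondrial synthetases had lower fold changes than the cytosolic set and did not share its difference between replicates. Their median log2 fold change was -0.16, from -0.65 (MARS2) to 0.14 (VARS2), with 4 positive and 12 negative. Both JOA libraries lay below both controls for 6 of the 16 (MARS2, EARS2, WARS2, TARS2, AARS2 and NARS2), against 18.3% of all genes, and above both for 1 (RARS2), against 36.8% of all genes. Replicate 2 was higher in both groups for 2 of the 16 and lower in both for 10, with median differences of -0.19 in JOA cells and -0.13 in control cells. The median of the cytosolic set exceeded that of the mitochondrial set by 0.27, a difference that was -0.12 without JOA replicate 2 and 0.0 without control replicate 1. It was 0.55 without JOA replicate 1 and 0.44 without control replicate 2.

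MARS2, the mitochondrial methionyl-tRNA synthetase (chr2:197705369-197708387, plus strand), had 7.09 and 5.50 FPKM in JOA cells, against 11.6 and 8.80 FPKM in control cells. The groups did not overlap, with means of 6.30 ± 1.12 FPKM with JOA and 10.2 ± 1.97 FPKM in controls (SD, n = 2 each) and a log2 fold change of -0.65 (SE 0.19, limma adjusted p = 0.26). EARS2, the glutamyl enzyme, had 9.85 and 7.51 FPKM in JOA cells, against 12.0 and 10.4 FPKM in control cells. No JOA library reached a control, and the log2 fold change was -0.36 (SE 0.17, limma adjusted p = 0.335). WARS2, the tryptophanyl enzyme, had 3.48 and 2.60 FPKM in JOA cells, against 4.02 and 3.91 FPKM in control cells. Again the groups were separate, and the log2 fold change was -0.35 (SE 0.17, limma adjusted p = 0.345). Without JOA replicate 2 the fold change was -0.18 for EARS2 and -0.17 for WARS2. The sign of WARS2 was opposite to that of its cytosolic counterpart, whose groups overlapped.

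LARS2, the leucyl enzyme, had 15.8 and 11.4 FPKM in JOA cells, against 17.3 and 15.1 FPKM in control cells. FARS2, which charges phenylalanine as a single chain, had 7.55 and 5.87 FPKM in JOA cells, against 8.25 and 7.49 FPKM in control cells. CARS2, the cysteinyl enzyme, had 3.06 and 2.55 FPKM in JOA cells, against 3.47 and 2.98 FPKM in control cells. In these 3 genes the groups overlapped, with JOA replicate 2 the lowest library in each, and the log2 fold changes were -0.26, -0.22 and -0.17. Without JOA replicate 2 they were -0.03, -0.06 and -0.06. TARS2, the threonyl enzyme, differed by a small and even step, with 19.3 and 19.7 FPKM in JOA cells, against 21.8 and 22.1 FPKM in control cells. Its groups did not overlap, and its log2 fold change was -0.17 (SE 0.09, limma adjusted p = 0.388). The other mitochondrial members, YARS2, SARS2, AARS2, IARS2, NARS2, PARS2, HARS2, RARS2 and VARS2, had log2 fold changes between -0.17 and 0.14, of which that of VARS2 rests on a gene that shares 22.0% of its exon bases with GTF2H4.

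Set side by side for the same amino acid, the cytosolic member had the higher fold change in 13 of 17 pairs and the lower in 4, of which FARSA and FARS2 differed by only -0.0029, but in 14 of the 17 the library ratios overlapped between groups. The pairs are not independent, since EPRS1 and FARS2 each stand in 2 of them. The ratio of VARS1 to VARS2 was 5.32 and 3.31 in JOA cells, against 8.05 and 6.57 in control cells. Both JOA libraries lay below both controls, and the fold changes differed by -0.78. The ratio of WARS1 to WARS2 was 14.9 and 50.9 in JOA cells, against 11.1 and 19.3 in control cells, with fold changes that differed by 0.86. For MARS1 over MARS2 it was 6.93 and 12.6 in JOA cells, against 4.48 and 7.92 in control cells. For AARS1 over AARS2 it was 8.66 and 15.8, against 6.11 and 10.2. In these 3 pairs the library ratios overlapped. Besides VARS1 over VARS2, only the ratio of HARS1 to HARS2 lay below both controls in both JOA libraries, and only that of RARS1 to RARS2 lay above.

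Summed over members, cytosolic synthetases reached 1187 and 1671 FPKM in JOA cells, against 1187 and 1446 FPKM in control cells. The mitochondrial synthetases reached 232 and 211 FPKM in JOA cells, against 245 and 231 FPKM in control cells. JOA replicate 1 and control replicate 1 thus had the same cytosolic sum in FPKM as deposited, and replicate 2 was the higher library of each group. As a share of all FPKM, the cytosolic sum was 0.421% and 0.598% in JOA cells, against 0.398% and 0.479% in control cells. The ratio of the cytosolic to the mitochondrial sum was 5.12 and 7.92 in JOA cells, against 4.84 and 6.26 in control cells, and the groups overlapped.

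Other genes of the same processes gave a frame for these values. Of the 3 complex scaffolds, AIMP1 had 19.8 and 20.8 FPKM in JOA cells, against 19.4 and 20.5 FPKM in control cells. AIMP2 had 12.4 and 11.6 FPKM in JOA cells, against 15.5 and 13.2 FPKM in control cells, with no overlap and a log2 fold change of -0.25 (SE 0.12, limma adjusted p = 0.35). EEF1E1 had 6.26 and 9.71 FPKM in JOA cells, against 6.15 and 8.56 FPKM in control cells, with the library order of the cytosolic synthetases. Of 4 cytosolic elongation factors, only EEF1D, an exchange factor that recycles the factor delivering charged tRNA, was lower at an unadjusted limma p under 0.05 (5.82% of all genes were), with 6.05 and 6.95 FPKM in JOA cells, against 9.75 and 8.75 FPKM in control cells (log2 fold change -0.48, adjusted p = 0.247). EEF1A1, the delivering factor itself, had a log2 fold change of 0.07, the highest of the 4.

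On the mitochondrial side, 3 of 9 translation factors were lower at an unadjusted limma p under 0.05 and 0 were higher, against 5.82% and 11.4% of all genes, with a list median of -0.05. TUFM, which brings charged tRNA to the mitochondrial ribosome, had 163 and 131 FPKM in JOA cells, against 204 and 189 FPKM in control cells (log2 fold change -0.43). GFM1, a mitochondrial elongation factor G, had 8.32 and 5.89 FPKM in JOA cells, against 12.1 and 9.70 FPKM in control cells (-0.59), and the highest of the list, the initiation factor MTIF3, had a fold change of 0.17. The 4 partners that complete or modify charged mitochondrial tRNA (GATB, GATC, QRSL1 and MTFMT) had a median of -0.05, from -0.18 (GATB) to 0.07 (QRSL1). Of 76 mitochondrial ribosomal proteins tested, 72 had negative fold changes, with a median of -0.29, and 28 were lower and 1 higher at an unadjusted limma p under 0.05, against 5.82% and 11.4% of all genes. They ran from MRPL41, with 13.2 and 13.9 FPKM in JOA cells, against 34.3 and 27.3 FPKM in control cells (-1.15), to MRPL53 (0.71).

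The 13 protein genes of mitochondrial DNA, whose mRNAs the mitochondrial synthetases help to translate, all had negative fold changes, with a median of -0.49 and 10 lower at an unadjusted limma p under 0.05, against 5.82% of all genes. They ran from MT-ATP8, with 10.5 and 12.6 FPKM in JOA cells, against 31.9 and 32.5 FPKM in control cells (-1.45), to MT-ND5 (-0.02). MT-ATP8 was also the lowest of the 13 in level, at a mean of 21.9 FPKM, against a list median of 2577 FPKM. Overlap of the exon bases of these 13 genes with other genes was not examined. Their share of all FPKM was 16.6% and 15.2% in JOA cells, against 19.1% and 20.6% in control cells. The part of this share in the FPKM of other genes was not tested.

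MYC, whose product binds the E-box and is known to drive genes of translation, had 107 and 72.2 FPKM in JOA cells, against 119 and 139 FPKM in control cells. The groups did not overlap, with a log2 fold change of -0.54 (SE 0.21, limma adjusted p = 0.293). JOA replicate 2 had the lowest MYC level of the 4 libraries and also the lowest levels of VARS1, KARS1, FARSB, MARS2, EARS2 and WARS2. It was also the lowest for NARS2, at 0.994 of JOA replicate 1. HARS1, TARS2 and AARS2 were lowest in JOA replicate 1 instead. All these members were picked for both JOA libraries below both controls, so a JOA library had to be the lowest. This order is therefore not a result about MYC. MARS2 and EARS2 held an E-box in their window, KARS1, FARSB, WARS2 and NARS2 did not, and VARS1 had no window. Whether MYC has a part in the levels of these synthetases was not tested.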

How the data were processed

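Total RNA of K562 cells was sequenced from stranded mRNA libraries. The authors deposited FPKM values per gene, and their processing notes name Trimmomatic, HISAT2, Cufflinks, HTSeq and build hg38, with neither versions nor gene annotation given in the sources used here. Reads per gene were recovered as FPKM times union exon length of GENCODE 29; of 25508 genes under 1000 reads in every library, 96.3% came out whole within 0.05 reads, and 31 of the 35 members were whole in all libraries. Symbols were matched for 34749 of 35141 gene IDs. Libraries were grouped by title. JOA and control libraries (2 each) were compared with limma 3.58.1 in R 4.3.3 (trend, two-sided, 2 residual degrees of freedom) on log2(FPKM + 0.5), with no covariate, over genes averaging 0.5 FPKM or more, and the script was tested on simulated data. With 2 against 2 libraries, an exact permutation test cannot reach 0.05, so none was run. Python 3.11.15, pandas 2.3.3, numpy 2.4.6 and matplotlib 3.10.9 were used.

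Values in every library were given for the 8 cytosolic and 6 mitochondrial members with the largest absolute fold change, the highest and lowest member of each compartment and every member with an unadjusted p under 0.05; RARS1, QARS1, HARS2 and TARS2 were added after their values were seen. Members, lists and motifs were chosen with earlier results of these data known. Alternatives were other pseudocounts, filters and scalings, a replicate block, each library left out, no variance trend, and voom weights on recovered reads. The mouse table was not used. 1 marker of other blood cells is not reported here.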

Additional observations from a re-analysis of the deposited data

How the results depend on the processing

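With 2 libraries a group, leaving out 1 library moved most results. The cytosolic median log2 fold change ranged from -0.17 to 0.35, the mitochondrial median from -0.20 to -0.05, and their difference from -0.12 to 0.55; without JOA replicate 2 the cytosolic median was -0.17, and without control replicate 1 it was -0.07. Members at an unadjusted limma p under 0.05 ranged from 0 to 3 higher and from 0 to 8 lower, and members with groups that did not overlap from 4 to 15 above and from 11 to 18 below. With 1 library left in a group, a lack of overlap is easier to reach. The counts of all genes at that p also moved between these runs. The share of all genes without overlap in them is not given here. These member counts are therefore not a result about the members. Fold changes that turned sign ranged from -0.29 to 0.20 for MARS1, -0.16 to 0.03 for IARS2, -0.28 to 0.51 for GARS1, -0.20 to 0.36 for NARS1, -0.19 to 0.35 for YARS1, -0.04 to 0.15 for HARS2, -0.10 to 0.17 for PARS2, -0.22 to 0.61 for CARS1, -0.03 to 0.35 for EPRS1, -0.07 to 0.45 for IARS1, -0.17 to 0.56 for SARS1, -0.06 to 0.46 for TARS1, -0.16 to 1.18 for WARS1 and -0.35 to 0.01 for YARS2. VARS1, KARS1, FARSB and MARS2 stayed negative in every alternative run, and HARS1 in all but the voom fit, which left it out. They are among 17 members that never turned sign. With median-ratio scaling, which moved the median of all genes to -0.03, the cytosolic median was -0.03 and the mitochondrial -0.27. The log2 ratios of summed FPKM were then -0.03 and -0.25. Of the members, 0 lay above and 16 below both controls. The share of all genes without overlap under this scaling is not given here, so these counts are not a result about the members. At an unadjusted limma p under 0.05, 954 of all genes were higher and 1552 lower under it, against 1787 and 910 in the main fit. The sign turned for GARS1 (-0.03), NARS1 (-0.06), QARS1 (-0.06), YARS1 (-0.06), HARS2 (-0.08), PARS2 (-0.10), RARS2 (-0.05) and VARS2 (-0.0046). With TPM scaling (median of all genes 0.20), 1 member was higher at that p (RARS1) and 2 lower, where 2867 of all genes were higher and 495 lower. Here 6 members lay above both controls, again with no share of all genes given. The log2 ratio of the mitochondrial sum was -0.01, and MARS1 (0.05), IARS2 (0.03) and NARS2 (0.04) turned sign. With quantile normalization (median 0.00), 1 member was higher at that p, where 1186 of all genes were. MARS1 (0.03), HARS2 (-0.02), IARS2 (0.05) and PARS2 (-0.07) turned sign. With no filter on low values 1 member was higher at that p, where 2466 of 31698 genes were. Over genes of at least 5 FPKM, 2 genes were called higher and 2 lower, none of them a member. Replicate numbers are shared between groups but pair nothing by label; same-numbered deviations correlated at r = 0.19 and rho = 0.31 over 15635 genes, and a replicate block gave 3 members higher (AARS1, LARS1 and WARS1) and 6 lower at the unadjusted p, where 2568 of all genes were higher and 1532 lower, with a smallest adjusted p of 0.0902 over the members. The cause of these shifts was not tested beyond the setting itself. Of 483 member values under alternatives, 36 turned sign, in 18 members.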
